A study of Homo sapiens with 2 samples.

Results

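The genes described here encode 40 regulators of pre-mRNA splicing, taken by symbol from the 58884 gene IDs of the count files: 14 SR proteins, 6 kinases that phosphorylate them (4 CLK and 2 SRPK kinases) and 20 heterogeneous nuclear ribonucleoproteins (hnRNPs). The members were taken by gene name, from a list drawn up with earlier results of these data known. Counts came from T24/R, an adherent urinary bladder line, after 6 h with the solvent DMSO or with 1600 nM THZ1. THZ1 is a covalent inhibitor of CDK7, the kinase of transcription factor TFIIH, and it also hits the elongation kinases CDK12 and CDK13. Both cultures shared the medium, and the labels record no genetic change in either. The series concerns chemonaive and chemoresistant urothelial carcinoma, and the labels do not say which of these T24/R stands for. Each group had 1 library. No replicate can therefore check any difference, and no p-values are printed.

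SR proteins carry a domain rich in arginine and serine, bind exonic enhancers and recruit the spliceosome. CLK and SRPK kinases phosphorylate that domain, which moves SR proteins out of nuclear speckles and into the nucleus. hnRNPs coat nascent transcripts and often oppose SR proteins by silencing exons. Many genes of these families, the CLK genes among them, adjust their own mRNA through unproductive splicing, retained introns or nuclear hold-back of the transcript.

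Total counts were 18445831 with DMSO (23986 genes detected) and 18313827 with THZ1 (23528 genes). Ratios are log2 values of THZ1 over DMSO after TMM scaling, with 0.5 added to each count. A gene was tested when either library had 30 or more counts. It was called lower or higher when the ratio was at least 2-fold and its exact Clopper-Pearson 95% interval excluded 1. Intervals and the 3-count floor cover counting error only, as each group had 1 library. No molecular identifiers were used to separate molecules from PCR copies, so the intervals can be too narrow even for counting error. Of the 40 members, 39 were tested. In bulk RNA, fewer cells with a transcript and less of it per cell cannot be told apart. Checked against its labelled origin, the line had vimentin at 63269 (DMSO) and 84532 (THZ1) counts and keratin gene KRT18 at 696 and 494 (log2 ratio 0.03). The other listed keratin genes had few counts, KRT8 77 and 100 (0.90, neither), KRT7 18 and 17, and KRT19 1 and 1. EPCAM had 0 and 3 counts and the E-cadherin gene CDH1 had 2 and 3. Of 9 urothelial markers, 8 were under 30 counts in both libraries. The exception was FOXA1, named after its values were seen, which was lower in THZ1 (129 and 21 counts, −2.07). All 9 together summed to 7.62 and 2.94 CPM. Under 30 counts were also all 5 immune markers (0.272 and 0.196 CPM) and 4 of 6 endothelial and stromal markers (3.45 and 6.33 CPM for the 6). The exceptions, named after their values were seen, were LUM (34 and 69 counts, 1.54, higher) and COL1A1 (30 and 20 counts, neither). The 4 mesenchymal markers summed to 3672 and 6619 CPM, and their part in the results was not tested.

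The kinase genes CLK4 and CLK1 stood lowest, SR protein genes mostly lay below the median of all tested genes (−0.03) and hnRNP genes mostly above it. Genes with 1000 or more counts had a median of 0.22, close to the 0.31 of the hnRNPs. CLK4 was 7.77-fold lower and CLK1 4.94-fold lower in the THZ1 library. The SR protein gene SRSF4 was 2.94-fold lower and the hnRNP gene HNRNPF 2.99-fold lower, while HNRNPA2B1 was 2.47-fold, HNRNPA3 2.42-fold and HNRNPH3 2.19-fold higher. These 4 lower and 3 higher genes were all that passed the rule, and the other 32 were neither. Among all 12457 tested genes 21.3% were called lower and 9.70% higher, against 10.3% and 7.69% of the tested members, so called genes were not more frequent among the members than in the whole table. Among the 4232 genes with 1000 or more counts, a level that most members reach, the shares were 13.2% and 10.2%.

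**Figure D1:**
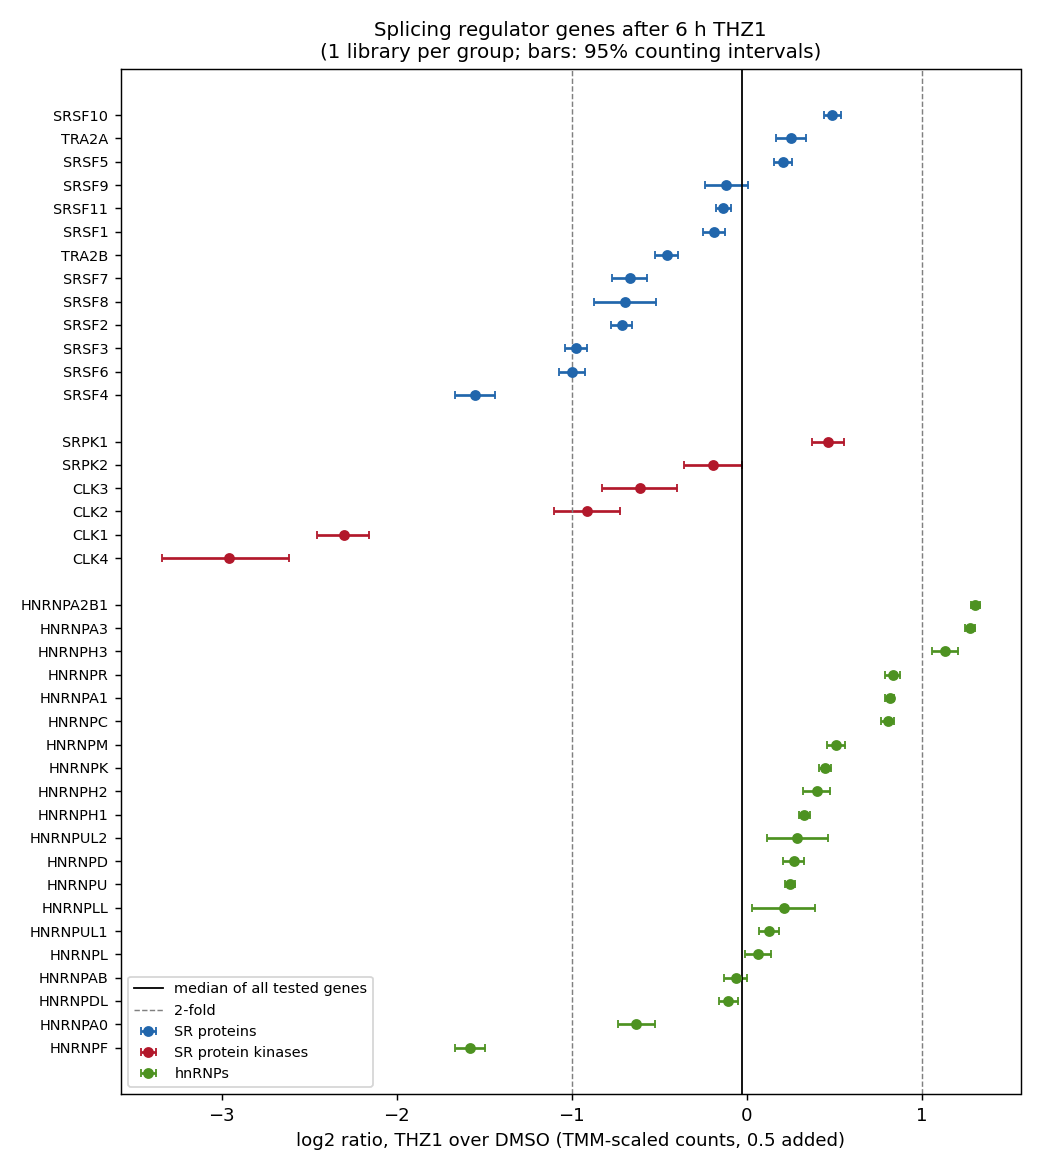
Log2 ratio of THZ1 over DMSO (horizontal axis, TMM-scaled counts) for the 39 tested members, 1 point per gene, with 95% counting intervals, grouped as SR proteins, kinases and hnRNPs. CLK4 (−2.96) and CLK1 (−2.30) lie furthest left, and 16 of 20 hnRNPs lie right of 0 on this scaling, where total counts or the mitochondrial mRNAs put their median left of 0.

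Sequences just before the RefSeq starts of the 4 lower genes are shown because these are the members whose transcripts were least abundant relative to DMSO. RefSeq (GRCh38.p14) gave promoter entries for 37 of the 40 members. Each stretch lies within the 250 bases before the RefSeq start and outside every GENCODE 29 exon, and is given on the gene's own strand. Those of CLK1 and SRSF4 end where the GENCODE gene begins, while those of CLK4 and HNRNPF lie in an intron of a longer GENCODE transcript of the same gene that starts further upstream. Capitals mark matches on either strand to any of 6 motifs. The GC box was searched as GGGCGG and the ETS core, the centre of sites for ETS family factors, as CGGAAG. The E-box was searched as CACGTG and the TATA box as TATAAA. The CCAAT box was searched by its name, and the cAMP response element as TGACGTCA. Motifs can overlap, since a GC box and an ETS core can share letters, and each was counted on its own.
CLK1, chr2:200864745-200864908, minus strand: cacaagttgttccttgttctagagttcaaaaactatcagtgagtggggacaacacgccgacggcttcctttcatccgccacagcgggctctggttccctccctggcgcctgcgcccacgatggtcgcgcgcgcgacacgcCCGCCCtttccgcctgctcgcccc
CLK4, chr5:178627115-178627300, minus strand: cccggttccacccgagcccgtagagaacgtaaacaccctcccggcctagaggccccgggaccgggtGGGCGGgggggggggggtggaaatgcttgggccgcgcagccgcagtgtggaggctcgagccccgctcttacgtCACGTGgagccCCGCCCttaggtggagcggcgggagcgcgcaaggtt
SRSF4, chr1:29181988-29182150, minus strand: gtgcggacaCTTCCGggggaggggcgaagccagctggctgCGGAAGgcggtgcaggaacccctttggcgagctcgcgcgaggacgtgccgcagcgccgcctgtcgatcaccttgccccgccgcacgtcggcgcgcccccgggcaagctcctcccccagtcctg
HNRNPF, chr10:43408883-43409089, minus strand: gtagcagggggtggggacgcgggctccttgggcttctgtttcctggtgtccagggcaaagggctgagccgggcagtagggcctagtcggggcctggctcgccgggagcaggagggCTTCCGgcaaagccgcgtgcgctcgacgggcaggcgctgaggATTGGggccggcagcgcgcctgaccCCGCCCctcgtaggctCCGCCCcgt

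CLK1 had 1 GC box in its stretch, CLK4 2 GC boxes and an E-box, SRSF4 2 ETS cores, and HNRNPF 2 GC boxes, 1 ETS core and 1 CCAAT. For the 3 higher genes all 250 bases fall within annotated exons and are not printed. Over full 250-base windows a GC box was found in 24 of 37 members (5 of 12 SR proteins, 4 of 6 kinases, 15 of 19 hnRNPs) and in 42.6% of all 35116 RefSeq windows. CCAAT was found in 2 SR protein, 1 kinase and 14 hnRNP windows and in 32.0% of all windows. CACGTG was found in 0 SR protein, 2 kinase and 6 hnRNP windows, against 6.34% of all. The ETS core occurred in 12 of the 37 (16.5% of all windows), TATAAA in 4 (10.7%) and TGACGTCA in 0 (1.65%). The median share of G and C letters was 65.6% in the 37 member windows and 58.0% in all 35116, and its part in these matches was not tested. Each member gave 1 window, at the start nearest to the gene's 5' end, while all 35116 entries were counted without such a choice. A letter match is not a bound site, and no motif was set against the ratios.

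CLK1, CLK2, CLK3 and CLK4 are nuclear dual-specificity kinases of the LAMMER family, named after a motif in the catalytic domain. CLK4 (ENSG00000113240, chromosome 5 from 178602664 to 178630615 on GRCh38) had 788 counts in DMSO and 70 in THZ1. CLK1 (ENSG00000013441, chromosome 2 from 200853009 to 200864744) had 3066 and 431 counts. Their log2 ratios were −2.96 (−3.34 to −2.61) and −2.30 (−2.45 to −2.16), lower than those of 98.0% and 94.8% of tested genes. CLK2 had 885 and 327 counts, a ratio of −0.91 (−1.10 to −0.73), within 2-fold. CLK3 had 585 and 266 counts and a ratio of −0.61 (−0.83 to −0.40). Of its exonic bases 6.65% are shared with genes on the opposite strand, EDC3 (531 and 156 counts) among them. All 4 CLK genes were thus below 0, with 2 of 4 called, and their median was −1.61. Of all 12457 tested genes 6383 were below 0 and 21.3% were called lower. That median combines a pair far below 2-fold with a pair inside it. On total counts CLK2 (−1.42) and CLK3 (−1.13) were also called lower, and CLK2 was with DESeq2 size factors too (−1.02).

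SRPK1 and SRPK2 encode the mainly cytoplasmic kinases that prepare SR proteins for nuclear import. SRPK1 had 1948 and 1869 counts and a ratio of 0.47 (0.37 to 0.56), which lies below 0 on total counts. SRPK2 had 792 and 481 counts and a ratio of −0.19 (−0.36 to −0.03). Neither was called, and 3.69% of SRPK2's exonic bases are shared, chiefly with KMT2E on the opposite strand (1298 and 517 counts). Over the 6 kinases the median was −0.76, beside −0.03 for all tested genes.

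Levels per length show how the kinase pool differed between the libraries. Per kilobase of exon, on the TMM scale, CLK1 was the most abundant of the 6 kinases in DMSO at 26.9 RPKM, and SRPK1 followed at 13.2 RPKM. In THZ1 SRPK1 led at 18.2 RPKM, with CLK2 at 5.82 and CLK1 at 5.44 RPKM. CLK1 accordingly made up 43.0% of the summed kinase level in DMSO and 15.2% in THZ1, and SRPK1 21.1% and 50.8%. CLK4 went from 7.22% to 1.61% of the sum. These shares do not depend on library scaling but do depend on exon lengths, taken over all annotated exons of a gene together. That length was 20443 bases for CLK3, beside 7924 for CLK4 and 3670 for CLK2, so the shares partly reflect annotation.

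**Figure D2:**
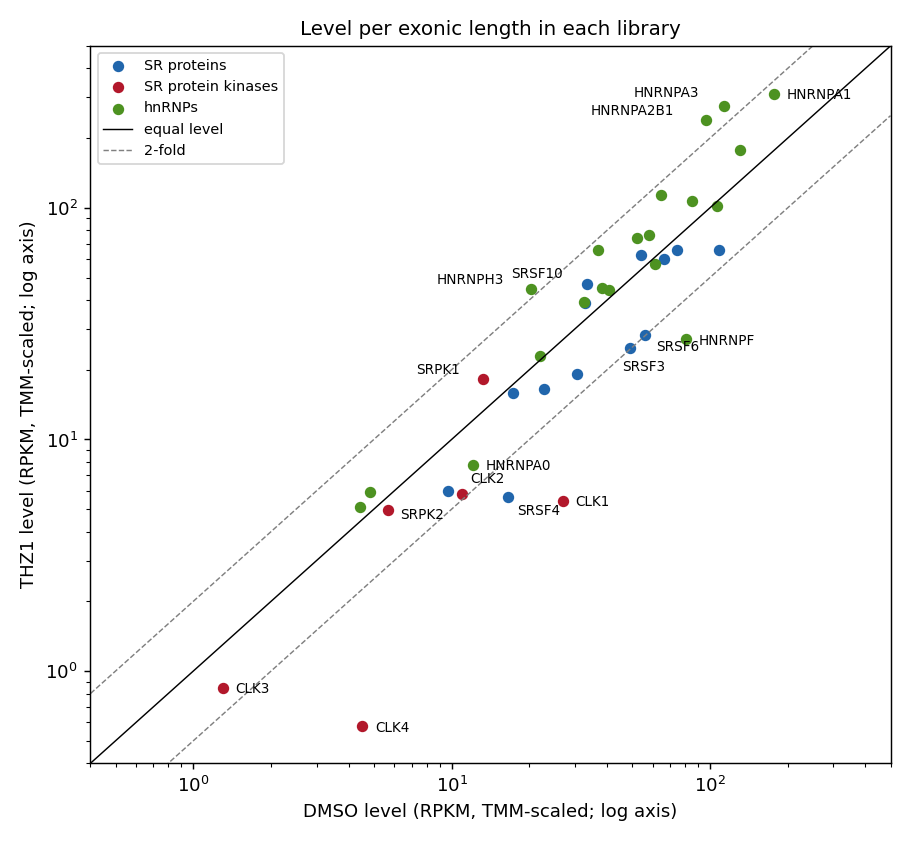
Level per exonic length (RPKM, log axes) of each tested member in DMSO (horizontal) and THZ1 (vertical), with lines for equal level and for 2-fold. CLK1 and CLK4 lie below the lower 2-fold line with SRSF4 and HNRNPF, and HNRNPA3, HNRNPA2B1 and HNRNPH3 lie above the upper one on the TMM scale.

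Among the SR proteins, SRSF4, SRSF5 and SRSF6 form a group with a pair of RNA recognition motifs and a long arginine-serine domain. SRSF4 (ENSG00000116350, chromosome 1 from 29147743 to 29181987) had 3250 counts in DMSO and 769 in THZ1, a ratio of −1.55 (−1.67 to −1.44). SRSF6 had 5698 and 1983 counts, a ratio of −0.997 (−1.07 to −0.92) that stops just short of 2-fold (1.996-fold lower). SRSF5 had 6386 and 5126 counts and a ratio of 0.21 (0.15 to 0.26), which is below 0 on total counts. The group therefore spread from a called decrease to a ratio above the median of all genes.

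SRSF3 and SRSF7 are small SR proteins that also serve as adaptors for mRNA export. SRSF3 had 7675 and 2712 counts, a ratio of −0.98 (−1.04 to −0.91). SRSF7 had 2725 and 1191 counts, a ratio of −0.67 (−0.77 to −0.57). SRSF3 and SRSF6 were called lower by upper quartile scaling (−1.01 and −1.03) and by DESeq2 size factors (−1.09 and −1.11), so their calls turn on small shifts of scale. SRSF2 had 7203 and 3048 counts, a ratio of −0.72 (−0.78 to −0.65). SRSF8, its close relative, had 862 and 370 counts and a ratio of −0.69 (−0.87 to −0.52). Of SRSF2's exonic bases 36.7% lie in exons of another gene, chiefly MFSD11 on the opposite strand, and no strand setting is given, so the SRSF2 counts are uncertain.

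SRSF1, the SR protein first purified as a splicing factor, had 5512 and 3360 counts and a ratio of −0.19 (−0.25 to −0.13). SRSF9 had 1421 and 911 counts, a ratio of −0.12 (−0.24 to 0.00). SRSF11 had the most counts of the family, 12371 and 7839, and a ratio of −0.13 (−0.17 to −0.09). These 3 lay close to the median of all genes. Other genes' exons cover 60.7% of the exonic bases of SRSF1 and 46.2% of those of SRSF9, so both are uncertain. SRSF10, which represses splicing when dephosphorylated, had 7602 and 7417 counts and the highest ratio of the family, 0.49 (0.44 to 0.54), which is −0.03 on total counts. SRSF12 had 2 counts in each library, under the floor of 3 counts, and no difference could have been seen with so few counts.

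TRA2A and TRA2B, the human counterparts of the fly sex-determination factor transformer-2, bind GAA-rich enhancers. TRA2B had 5887 and 2978 counts, a ratio of −0.46 (−0.52 to −0.39). TRA2A had 2535 and 2100 counts, a ratio of 0.25 (0.17 to 0.34), below 0 on total counts. Across the 13 tested SR protein genes the median was −0.46, with 10 below 0, 1 called lower and 0 higher. At 1.5-fold in place of 2-fold 6 of the 13 were lower (SRSF2, SRSF3, SRSF4, SRSF6, SRSF7 and SRSF8) and 0 higher, where 30.5% of all tested genes were lower and 23.4% higher by that rule. The same 6 genes were lower at 2-fold on total counts.

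Within the SR protein pool the ranking by level per length shifted. SRSF2 led in both libraries, with 18.9% of the summed SR level in DMSO and 14.4% in THZ1, where SRSF1 was close behind. Exons of other genes cover 36.7% of SRSF2's exonic bases and 60.7% of SRSF1's, so both levels and this lead are uncertain. SRSF6 held 9.84% and then 6.17%, going from rank 4 to 7, and SRSF3 8.56% and 5.44%. SRSF5 went from 9.46% to 13.7% (rank 5 to 3) and SRSF10 from 5.87% to 10.3%. SRSF4 made up 2.90% and 1.24%.

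The hnRNP A/B proteins bind widely to nascent RNA and silence exons. HNRNPA2B1 (ENSG00000122566, chromosome 7 from 26173057 to 26201529) had 19701 counts in DMSO and 33833 in THZ1, the highest ratio of all members at 1.31 (1.28 to 1.33). HNRNPA3 had 15079 and 25336 counts, a ratio of 1.27 (1.24 to 1.30). HNRNPA1, the most abundant member per length (176 and 311 RPKM), had 19803 and 24245 counts and a ratio of 0.82 (0.79 to 0.84). All 3 stayed above 0 on total counts, where HNRNPA2B1 and HNRNPA3 were at 0.79 and 0.76 and no longer called, and all 3 were below 0 on the mitochondrial mRNAs. HNRNPA0, whose coding sequence lies in 1 exon, went the other way with 2321 and 1042 counts, a ratio of −0.63 (−0.74 to −0.52).

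Near-identical copies bear on this family. By symbol, 22 members have pseudogene copies, 137 in all, of which HNRNPA1 has 75. The HNRNPA1 copies held 454 and 484 counts, 2.29% and 2.00% of the parent gene's counts, and the 16 copies of HNRNPA3 held 0.610% and 0.485%. How reads that map to several places were handled is not given in the sources used here, so the levels of HNRNPA1 and HNRNPA3 are uncertain.

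The hnRNP H/F proteins bind runs of guanines near splice sites. HNRNPF (ENSG00000169813, chromosome 10 from 43385617 to 43409166) had 5806 and 1350 counts, a ratio of −1.58 (−1.67 to −1.49). HNRNPH3 had 2399 and 3658 counts, a ratio of 1.13 (1.06 to 1.21), which is 0.62 on total counts and not called there. HNRNPH1 (17812 and 15557 counts, ratio 0.33) and HNRNPH2 (2846 and 2612 counts, ratio 0.40) were neither, and both fall below 0 on total counts. One subfamily thus held both a called decrease and a called increase on the TMM scale. In the hnRNP pool HNRNPF went from rank 7 by level per length (6.54% of the summed level) to rank 16 (1.47%).

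HNRNPC, which binds uridine tracts, had 10460 and 12706 counts and a ratio of 0.81 (0.77 to 0.84). HNRNPR had 7061 and 8741 counts and a ratio of 0.83 (0.79 to 0.88). With HNRNPA1 and the 3 called genes they were the 6 of 20 hnRNPs higher at 1.5-fold, while HNRNPF and HNRNPA0 were the 2 lower. By that rule 23.4% of all tested genes were higher and 30.5% lower. HNRNPK, which binds cytidine-rich RNA, was at 0.45 (14716 and 13929 counts) and HNRNPM at 0.51 (6444 and 6372 counts), both just below 0 on total counts (−0.07 and −0.01). The scaffold protein gene HNRNPU was at 0.25 (18931 and 15609 counts), and its relatives HNRNPUL1 and HNRNPUL2 at 0.13 and 0.29.

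The remaining hnRNPs lay close to the median of all genes. HNRNPD, which binds AU-rich elements, had a ratio of 0.27, and its relatives HNRNPDL and HNRNPAB −0.10 and −0.06. HNRNPL, which binds CA repeats, was at 0.06 and its relative HNRNPLL at 0.21. HNRNPLL (575 and 463 counts) and HNRNPUL2 (578 and 491 counts) were the least abundant of the family, and 44.1% of HNRNPUL2's exonic bases are shared with a readthrough gene. Over the 20 hnRNPs the median was 0.31, with 16 above 0, 3 called higher and 1 lower. Beside this, 6074 of the 12457 tested genes were above 0, with 9.70% higher and 21.3% lower. Of the 4232 genes with 1000 or more counts 2559 were above 0, with a median of 0.22. On total counts the median was −0.20, with 2 lower and 0 higher, and on the mitochondrial mRNAs −1.38.

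The comparison between the groups does not depend on the scaling, since a shift moves every gene alike. The SR protein median lay 0.77 below the hnRNP median on the log2 scale. In 219 of the 260 pairs of 1 SR protein gene and 1 hnRNP gene (84.2%) the SR protein gene had the lower ratio. These pairs reuse the same genes. The median of the SR proteins was undercut by 2 of the 20 hnRNPs, HNRNPF and HNRNPA0, and by 34.8% of all tested genes. Of the 13 SR protein genes 12 lay below the hnRNP median, SRSF10 being the exception. That median falls between HNRNPUL2 and HNRNPH1, which had 63.8% and 65.6% of all tested genes below them. Summed counts of the hnRNPs were 2.48 times those of the SR proteins in DMSO (171130 over 69129) and 4.65 times in THZ1 (185107 over 39806). A few genes with many counts weigh most in these sums and did not move alike. HNRNPA2B1 (19701 and 33833) and HNRNPA3 (15079 and 25336) had more counts in THZ1. HNRNPU (18931 and 15609) and HNRNPH1 (17812 and 15557) had fewer. Summed SR protein counts were 13.0 times the CLK counts in DMSO and 36.4 times in THZ1 (1094 CLK counts, against 5324 in DMSO). Without replicates it is not known how far such sums differ between 2 cultures treated alike.

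**Figure D3:**
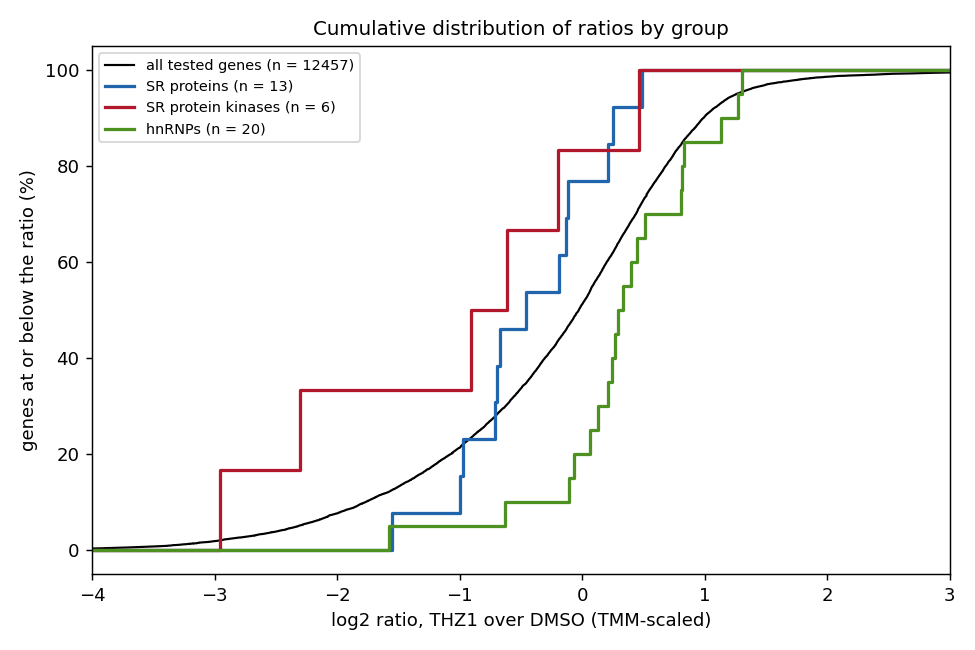
Cumulative share of genes (vertical axis, %) at or below each log2 ratio (horizontal axis, TMM-scaled) for SR proteins, kinases, hnRNPs and all 12457 tested genes. The hnRNP curve (median 0.31, or −0.20 on total counts) lies to the right of the SR protein curve (median −0.46) except at the lowest gene of each, and that order needs no scaling.

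Related genes were compared inside the same libraries, where the ratio of 2 genes needs no scaling. Of 28 pairs of close relatives with both genes tested, 20 had an exact 95% interval of the difference that excluded 0 and 8 had one that lay wholly beyond 2-fold. These intervals compare the 2 libraries and not the conditions. All 7 kinase pairs were apart, as were 5 of 7 SR protein pairs and 8 of 14 hnRNP pairs. No share over pairs of tested genes in general was computed, so these counts have no background to stand beside. With many counts the interval of a small difference also excludes 0, as for HNRNPU above HNRNPUL1 by 0.12 (0.06 to 0.18). All kinase pairs but SRPK1 with SRPK2 reuse the same 4 CLK genes.

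Among the kinases, CLK3 lay above CLK4 by 2.35 (1.94 to 2.79) and CLK2 above CLK4 by 2.05 (1.65 to 2.47). CLK2 lay above CLK1 by 1.39 (1.15 to 1.63) and CLK3 above CLK1 by 1.69 (1.43 to 1.95). CLK1 and CLK4 differed by 0.65 (0.28 to 1.07), and CLK2 and CLK3 by 0.30 (0.01 to 0.58). The 4 CLK genes thus fell into the low pair CLK1 and CLK4 and the pair CLK2 and CLK3, with every difference across the pairs beyond 2-fold. CLK2 counts were 0.289 times the CLK1 counts in DMSO and 0.759 times in THZ1.

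For SR proteins the widest gap was that of SRSF5 over SRSF4, 1.76 (1.64 to 1.89). SRSF5 counts were 1.96 times the SRSF4 counts in DMSO and 6.67 times in THZ1. SRSF5 also lay above SRSF6 by 1.21 (1.11 to 1.30), and TRA2A above TRA2B by 0.71 (0.61 to 0.82). By contrast SRSF2 and SRSF8 differed by −0.02 (−0.21 to 0.17) and SRSF1 and SRSF9 by −0.07 (−0.21 to 0.06), with intervals that include 0. The counts of SRSF1, SRSF2 and SRSF9 are uncertain because of exons shared with other genes. Whether reads were shared between SRSF2 and its close relative SRSF8 was not tested.

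Among hnRNPs, HNRNPH1 lay above HNRNPF by 1.91 (1.82 to 2.00) and HNRNPA1 above HNRNPA0 by 1.45 (1.34 to 1.56). HNRNPF counts were 0.326 times those of HNRNPH1 in DMSO and 0.0868 times in THZ1. HNRNPA2B1 and HNRNPA3, the members with the highest ratios, differed by 0.03 (−0.01 to 0.07). Both lay above HNRNPA1, by 0.49 (0.45 to 0.53) and 0.46 (0.42 to 0.50). HNRNPH1 and HNRNPH2 differed by −0.07 (−0.15 to 0.01) and HNRNPU and HNRNPUL2 by −0.04 (−0.22 to 0.14).

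**Figure D4:**
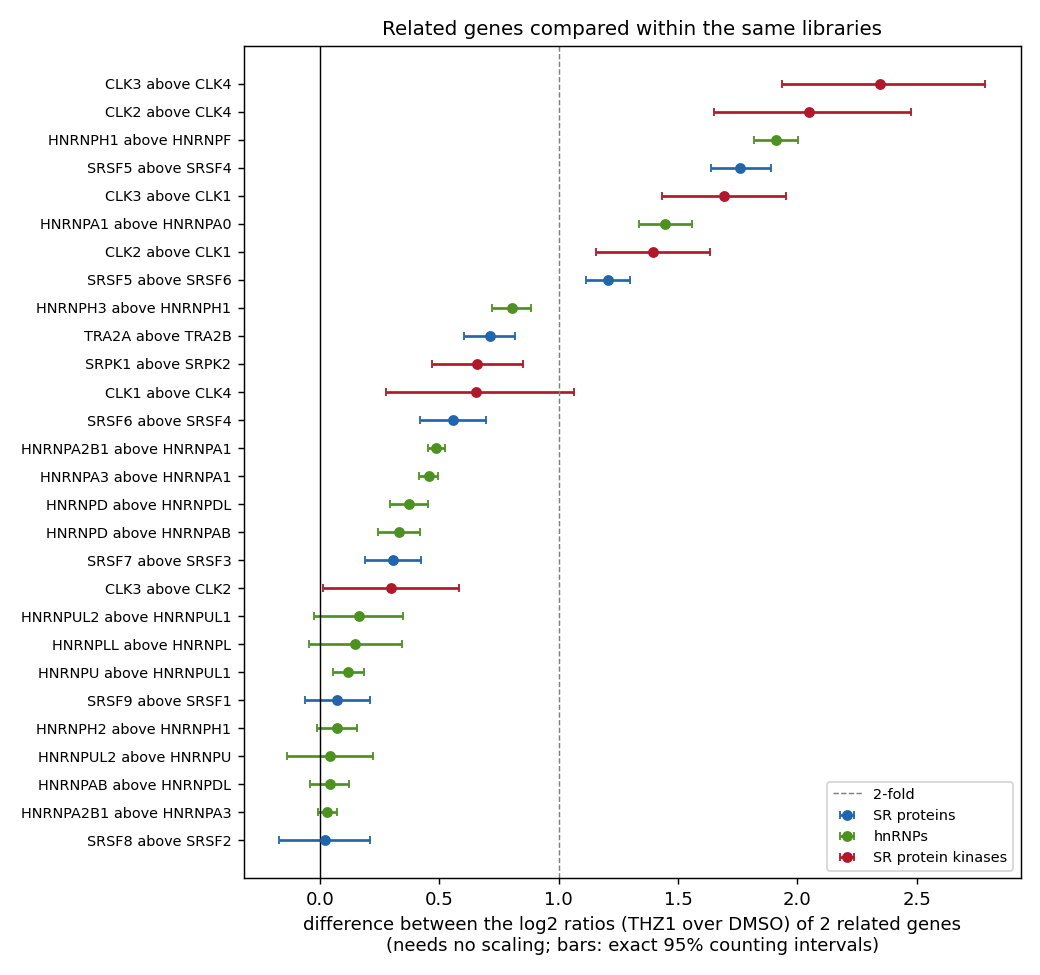
Difference between the log2 ratios of 2 related genes (horizontal axis), the higher minus the lower, for 28 pairs, with exact 95% counting intervals. Pairs of CLK1 or CLK4 with CLK2 or CLK3, HNRNPH1 with HNRNPF, HNRNPA1 with HNRNPA0, and SRSF5 with SRSF4 or SRSF6 lie beyond 2-fold.

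The coding sequence of 4 tested members lies in 1 exon. Their ratios were −1.58 for HNRNPF, −0.69 for SRSF8, −0.63 for HNRNPA0 and 0.40 for HNRNPH2 (below 0 on total counts). Their median was −0.66, beside 0.13 for the 35 members with several coding exons. Of these 4 genes 1 was called lower, where 45.9% of the 543 tested protein-coding genes with 1 coding exon were, and 20.7% of the 10332 with several. The split by coding exons was looked at after the member values were seen.

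Properties that did not enter the choice of members varied loosely with the ratio. Across the 39 tested members Spearman's rho with the ratio was 0.33 for the DMSO level per length and 0.29 for the number of coding exons, and it was −0.24 for the number of annotated transcripts subject to nonsense-mediated decay and −0.02 for that of retained-intron transcripts. Over 10881 tested protein-coding genes these values were 0.21, 0.11, 0.09 and 0.07. All genes share the same 2 libraries, and the DMSO count enters the ratio itself, so these values are descriptions. The counts are per gene and do not separate productive from unproductive transcripts.

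In the wider pathway, 13 genes for other SR protein kinases, phosphatases and import receptors were listed, of which 11 were tested. The rule called 4 of them lower and none higher (median 0.07), beside 21.3% lower among all tested genes. DYRK2 (558 and 65 counts, −2.57) and DYRK3 (315 and 39 counts, −2.47), kinases related to the CLK family, were lower. So was PPP1R8 (1037 and 152 counts, −2.24), a nuclear regulator of protein phosphatase 1. The fourth was DYRK1A (1666 and 440 counts, −1.39), named after its value was seen. PPP1CA (0.26), TNPO1 (0.74) and PPP1CB (0.98), which encode 2 phosphatase 1 catalytic subunits and a nuclear import receptor, were neither.

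Among 23 SR-related genes, 22 were tested. The median was −0.25, 4 genes passed as lower and 1 as higher, beside 21.3% lower and 9.70% higher among all tested genes. LUC7L (−1.33), SCAF1 (−1.32) and RSRC2 (−1.30) were lower, as was LUC7L2 (−1.16), named after its value was seen. PNN, a speckle and desmosome-associated protein, was the 1 higher gene (5729 and 8674 counts, 1.12), at 0.61 on total counts. RSRC1 (0.57) and LUC7L3 (0.64) were neither. Of 15 further hnRNP-type genes 12 could be tested (median −0.18), and 3 passed, all as lower. RBMXL1 (2100 and 316 counts, −2.21), HNRNPA1L2 (109 and 19 counts, −1.96) and PCBP1 (515 and 128 counts, −1.48) were lower, and PCBP2 (0.43) and PTBP2 (0.89) were neither.

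The last list held 30 other splicing regulators with 1 gene ID each. In the 26 tested the median was 0.19, and 3 passed as lower and 1 as higher. RBM5, a regulator of apoptosis gene splicing, had 2120 and 133 counts and a ratio of −3.46 (−3.73 to −3.22), below that of every member. NOVA2 (−1.74) and RBM14 (−1.19) were the other lower genes, and RBM14 was not called where its whole interval had to lie beyond 2-fold. TAF15, an RNA-binding protein that also associates with TFIID, was higher (1.08) on TMM scaling and at 0.56, not called, on total counts. Its call was also lost with DESeq2 size factors (0.97) and where the whole interval had to lie beyond 2-fold. KHDRBS1 (0.61) and RBM3 (0.81) were neither. The share lower in these 4 lists ran from 11.5% to 36.4%, on both sides of the 21.3% of all tested genes. The share higher ran from 0% to 4.55%, beside 9.70% of all tested genes.

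All directions above are relative to the TMM reference. On total counts every log2 ratio is 0.51 lower, so members between 0 and that value on the TMM scale turn negative, 12 of the 39 members were called lower and 0 higher, and 34.2% of all tested genes were lower and 2.95% higher. On the 13 mitochondrially encoded mRNAs, which a separate polymerase makes, every ratio is 1.69 lower, and 33 of the 39 were lower and 0 higher, beside 80.3% of all tested genes lower. The files carry no measure of RNA per cell.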

How the data were processed

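The authors deposited 1 table of whole-number read counts per library, keyed by Ensembl gene ID. Trimmomatic 0.38, HISAT2 2.1.0, featureCounts 1.6.0 and the build GRCh38 are listed in the submitters' processing notes. For annotation release, strand setting and multi-mapped reads the settings were not given in the sources used here. Per the labels' protocols, TRIzol RNA went into KAPA mRNA HyperPrep libraries. Of the gene IDs, 58472 had a symbol and 58611 were in GENCODE 29, which supplied coordinates and exon lengths for RPKM. Each length covers all annotated exons of the gene together, those of retained-intron transcripts included.

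TMM factors came from edgeR 4.0.16 (R 4.3.3) over genes that reached 30 counts in either library. Ratios, Clopper-Pearson intervals and exact conditional intervals of odds ratios used Python 3.11.15, numpy 2.4.6, pandas 2.3.3 and scipy 1.17.1. Plots used matplotlib 3.10.9. The call rule was tested on simulated data. Alternatives were other scalings (total counts, DESeq2 1.42.0 size factors, upper quartile, mitochondrial mRNAs), count minimums of 1 and 1000, other thresholds, 5 counts added, thinning and protein-coding genes only. The members, gene lists and pairs were chosen with earlier results of these data known. Of each further list, up to 3 genes with the lowest and 3 with the highest ratio among those with 100 or more counts are named. MATR3 matched more than 1 gene ID and was left out, and 1 gene that this rule names is not reported here.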

Additional observations from a re-analysis of the deposited data

How the results depend on the processing

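No paired analysis was possible because each group had 1 library, which also leaves no replicate to leave out. On total counts 12 members were lower and 0 higher (4 and 3 with TMM), 22 genes of the other lists were lower (14 with TMM), 4260 of all tested genes were lower and 368 higher (2657 and 1208 with TMM), and the hnRNP median turned to −0.20. On the mitochondrial mRNAs 33 members were lower and 0 higher, 65 genes of the other lists were lower, 10000 of all tested genes were lower and 88 higher, the SR protein median was −2.15 and the hnRNP median −1.38. Every tested member and every named gene of the 4 further lists with a ratio above 0 on TMM lay below 0 on that reference, at HNRNPA1 −0.87, HNRNPC −0.88, HNRNPR −0.86, TNPO1 −0.94, PPP1CB −0.71, PTBP2 −0.80, RBM3 −0.88, SRSF5 −1.48, SRSF10 −1.20, TRA2A −1.44, SRPK1 −1.22, HNRNPA2B1 −0.38, HNRNPA3 −0.42, HNRNPD −1.42, HNRNPH1 −1.36, HNRNPH2 −1.29, HNRNPH3 −0.56, HNRNPK −1.24, HNRNPL −1.63, HNRNPLL −1.48, HNRNPM −1.18, HNRNPU −1.44, HNRNPUL1 −1.56, HNRNPUL2 −1.40, PPP1CA −1.43, RSRC1 −1.12, LUC7L3 −1.05, PNN −0.57, PCBP2 −1.26, KHDRBS1 −1.08 and TAF15 −0.61. These changes follow from the constant shift. DESeq2 size factors gave 7 lower members (2965 of all tested genes lower and 917 higher) and ended the call of TAF15 (0.97), and upper quartile gave 6 (2771 and 1107). With 1.5-fold as the threshold 12 of the 39 tested members were lower and 6 higher. Of all tested genes 3805 (30.5%) were then lower and 2914 (23.4%) higher. A minimum of 1 count gave 2223 higher genes, and one of 1000 counts 432 higher and 557 lower, since fewer or more genes are then tested. At 1000 counts 3 members were lower, because CLK4 was not tested. An interval bound of at least 2-fold gave 670 higher and 1874 lower genes, left 4 members lower and 3 higher, and ended the calls of RBM14 and TAF15. Adding 5 counts, thinning and protein-coding genes only each gave 4 members lower and 3 higher. With 99% intervals 19 of the 28 pairs were apart, and 20 after thinning. Counts limit SRSF12 (2 in each library), and biological variation between cultures was not measured.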

Other observations

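In the further lists the 3 tested genes with 1 coding exon, RBMXL1 (2100 counts with DMSO and 316 with THZ1), HNRNPA1L2 (109 and 19) and PCBP1 (515 and 128), were all lower, with a median log2 ratio of −1.96, where 45.9% of all tested protein-coding genes with 1 coding exon were lower. Each has a relative with several coding exons whose ratio was higher, RBMX at −0.17, HNRNPA1 at 0.82 and PCBP2 at 0.43. The 3 genes had the lowest ratios of their list, so RBMX and PCBP2, from the same list, could only lie higher. These pairs were not among the 28 compared above. Among the members HNRNPA0 (−0.63) lay below HNRNPA1 and HNRNPF (−1.58) below HNRNPH1 (0.33), but HNRNPH2 (0.40) did not lie below HNRNPH1, nor SRSF8 (−0.69) below SRSF2 (−0.72). Among all tested protein-coding genes the median was −0.83 for those with 1 coding exon and −0.04 for those with several. RBMX was named after its value was seen. HNRNPA1L2 and RBMXL1 closely resemble their relatives in sequence, so reads may be shared between them, and the part of this in their values was not tested.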
